A study of Tulipa gesneriana with 15 samples.

Results

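Early senescence was compared with buds in the garden tulip (Tulipa gesneriana, genotype given as WT), with RNA taken from whole flowers. A gene was included when its expression reached 1 FPKM or more in at least 3 of the 6 libraries of these stages. FPKM is a fragment count divided by the length of the feature and by the size of the library. The rule kept 41238 of the 76388 identifiers in the deposited table. RNA was sequenced from 3 libraries per stage at 5 stages, 15 libraries in all, which also covered partial blooming, full blooming and late senescence. No treatment is given for any group, and the same genotype is given for all. Whether the libraries of 1 stage are from different plants is not in the labels. The p-values therefore speak of the spread among these libraries alone, which may be technical. Each library holds RNA of every floral organ. A higher or lower level can therefore mean more or fewer cells of an organ or type, or more or less RNA per cell, and these cannot be told apart. The files pair no identifier with a gene name, so markers of floral organs could not be looked up and the labelled stages could not be checked against known genes.

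A bud still builds its organs, at first by cell division and then by cell expansion, while the floral whorls lie closed. Senescence of the perianth is a programmed end of life in which macromolecules are broken down and sugars, nitrogen and other nutrients are moved to other parts of the plant. Autophagy, proteases, nucleases and, in many species, the hormone ethylene are known to take part. Early senescence against buds thus sets the start of that decline against the youngest stage, with the whole opening of the flower in between.

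The 6 libraries formed 2 tight groups. Across the included genes, the Pearson correlation of log2(FPKM + 1) was 0.927 on average within buds and 0.960 within early senescence, against 0.673 between them. Genes are not independent of each other, and these correlations only describe the libraries. Some included genes passed the filter through 1 stage alone, which can lower the correlation between stages. The median standard deviation of a gene over 3 libraries was 0.256 log2 units in buds and 0.180 in early senescence, and it was larger in buds for 65.1% of genes. Bud replicate 3 and early senescence replicate 3 lay nearest to the other stage, at a mean correlation of 0.695 and 0.693 with its libraries. The depth of each library is unknown, since the table holds no read counts.

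Expression of 49.0% of the genes tested differed between early senescence and buds. Of 41238 genes, 7975 were higher in early senescence (19.3%) and 12235 were lower (29.7%) by limma's moderated test at a Benjamini-Hochberg adjusted p under 0.05. That lower genes outnumbered higher ones held only for some scalings. In the values as deposited, early senescence was at -0.21 log2 units relative to buds for the median gene tested, and higher genes made up 39.5% of the calls. Median-ratio scaling put that median at 0.02, and 10292 genes were higher and 9201 lower, so that 52.8% of calls were higher. With quantile normalization 10230 genes were higher and 9638 lower. The number of lower genes was 7734 without bud replicate 1 and 7766 without bud replicate 2 when the expression filter was applied again to the 5 remaining libraries. It was 9966 and 10121 without these libraries when the same genes were tested.

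**Figure D1:**
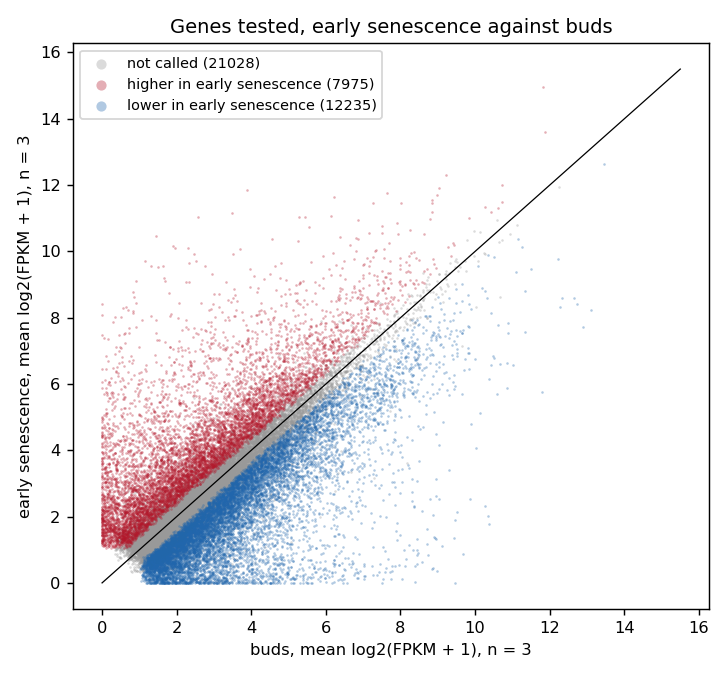
Mean log2(FPKM + 1) of each gene tested in buds (x axis, n = 3) and in early senescence (y axis, n = 3), with the line of equal levels. The 7975 higher genes lie above the line and the 12235 lower genes below it, and the 21028 genes not called lie along it.

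The changes were large for many genes. Higher genes had a median change of 1.23 log2 units and an upper quartile of 1.95. Lower genes had a median of -1.15, and the quartile with the larger falls began at -1.78. Over all tested genes, the middle 50% of changes ran from -0.78 to 0.39. A change of at least 1 log2 unit was found for 4931 higher genes (12% of genes tested) and 7206 lower genes (17.5%). At least 4 log2 units separated the stages for 393 higher and 426 lower genes, and at least 6 log2 units for 73 and 95. With median-ratio scaling, at least 4 log2 units separated them for 477 higher and 366 lower genes. These are differences of log2(FPKM + 1), which understates the change of low genes.

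Separation between libraries was wider than the list of calls. For 24820 genes (60.2% of genes tested) all 3 libraries of one stage lay above all 3 of the other. In the values as deposited, 9386 of these genes (22.8% of genes tested) were higher and 15434 (37.4%) lower in early senescence. With median-ratio scaling 24287 of 41214 genes were separated, and their split by direction was not counted. Of the 20210 called genes, 19786 were separated in this way and 424 had overlapping libraries. A further 5034 genes were separated but were not called. For a single gene, full separation of 3 libraries from 3 reaches only p = 0.1 in a two-sided exact permutation test. Many genes would therefore be separated with no difference between the stages, and the 5034 cannot be read as differences that limma missed. Among the separated genes are 2846 at 1 FPKM or more in all 3 bud libraries and in no early senescence library. The reverse kind adds 1417 genes. Both kinds are separated by definition.

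The filter itself added genes that had to differ. All 3 bud libraries and no library of early senescence reached 1 FPKM for 2846 genes, of which 2633 were called lower. The reverse held for 1417 genes, of which 1350 were called higher. The 28730 genes at 1 FPKM or more in all 6 libraries owe nothing to this. In the values as deposited, 5480 of them were called higher (19.1%) and 7924 lower (27.6%). Which direction was the more frequent may depend on the scaling, as it did over all genes tested. Genes just inside the filter, with exactly 3 of 6 libraries at 1 FPKM, numbered 5704 and had a median level of 1.37 FPKM over the 6 libraries. Genes just outside it, with 2 of 6, numbered 3534 and had a median level of 0.850 FPKM. Of the 35150 identifiers left out, 5923 are listed at 0 in all 6 libraries.

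Called genes were more frequent among abundant genes. Of the 8841 genes with a mean under 2 FPKM over the 6 libraries, 37.3% were called. This share was 45.2% of 18950 genes from 2 to 10 FPKM, 59.9% of 11937 genes from 10 to 100 FPKM and 79.4% of 1449 genes from 100 to 1000 FPKM. At 1000 FPKM or more, 28 of 61 genes were higher and 21 lower. The split of calls moved with level. In the lowest class 12.1% of genes were higher and 25.2% lower, and from 100 to 1000 FPKM these were 39.0% and 40.4%. With median-ratio scaling the lowest class still held more lower genes (20.2% against 15.6% higher). From 10 to 100 FPKM the order turned, from 27.1% higher and 32.8% lower as deposited to 34.5% higher and 23.6% lower. It turned from 100 to 1000 FPKM too, to 44.8% higher and 32.0% lower. The size of the change also grew with level. For higher genes the median went from 1.01 log2 units under 2 FPKM to 2.91 at 1000 FPKM or more. For lower genes it went from -0.95 to -3.35. Adding 1 to FPKM limits the change that genes at low levels can show, so part of this growth is given by the scale.

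**Figure D2:**
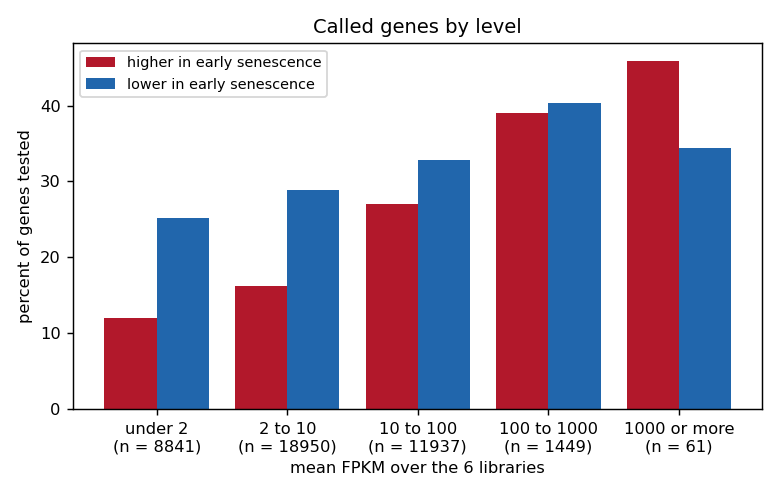
Percent of genes tested that were called higher or lower in early senescence than in buds (y axis), by mean FPKM over the 6 libraries (x axis, with the number of genes per class). Both shares rise from the lowest class to the class from 100 to 1000 FPKM, where 79.4% of genes were called in all.

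The most abundant genes held a somewhat larger share of expression in the early senescence libraries. The 100 most abundant genes of a library held 19.5%, 19.5% and 20.8% of its summed FPKM in buds and 22.7%, 22.8% and 22.2% in early senescence. The 2 stages did not overlap, and the means differed by 2.67 percentage points (two-sided exact permutation test, p = 0.1, the smallest that 3 libraries against 3 allow). The most abundant genes that together make up 50% of the summed FPKM numbered 1213 ± 128 (SD, n = 3) in buds and 963 ± 34.2 in early senescence, again without overlap (exact permutation p = 0.1). The top 10 genes held 7.04% ± 0.498 in buds and 8.66% ± 0.494 in early senescence.

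The lists of most abundant genes overlapped in part. By mean FPKM, 29 of the top 100 genes of buds were also among the top 100 of early senescence, and 445 of the top 1000 were shared. Of the top 100 of buds, 71 were called lower in early senescence and 8 higher. Of the top 100 of early senescence, 77 were called higher and 6 lower. A top list is chosen by high levels in one stage, so such a split is partly given by the choice. The top 100 of buds held 19.7% of the summed mean FPKM in buds and 12.1% in early senescence. The top 100 of early senescence held 22.5% there and 8.42% in buds.

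F01.PB75 was the most abundant gene of every library from full blooming onwards and had the largest gain in FPKM. It was at 3995, 4079 and 2907 FPKM in buds and at 34858, 33282 and 27770 FPKM in early senescence. All early senescence libraries lay far above all buds. By limma the log2 change was 3.14 ± 0.22 (SE), with an adjusted p of 2.22e-07, and the ratio of mean FPKM was 8.73. F01.PB75 stood at 7235 ± 944 FPKM (SD, n = 3) at partial and 13510 ± 911 at full blooming, and at 43458 ± 8436 by late senescence, so that its mean was higher at each stage than at the one before. It took up 0.389% ± 0.0674 of the summed FPKM in buds, then 3.49% ± 0.353 by early and 4.12% ± 0.675 by late senescence.

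F01.PB17424 had the largest log2 rise among called genes at 1 FPKM or more in all 6 libraries. It was at 5.30, 6.43 and 3.42 FPKM in buds and at 2154, 2094 and 2108 FPKM in early senescence. The mean was 419.5 times higher in early senescence, and the libraries of that stage differed little from each other. By limma the log2 change was 8.49 ± 0.29 (SE), with an adjusted p of 4.58e-10. Most of the rise was already present in the opening flower, with 1479 ± 240 FPKM (SD, n = 3) in partial blooming and 1852 ± 520 in full blooming. In late senescence F01.PB17424 was at 681, 406 and 851 FPKM, below every library of early senescence and above every bud.

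F01.PB792 had the largest loss in FPKM. It was at 8918, 10167 and 7725 FPKM in buds, where its ranks among all genes were 1, 2 and 3, and at 284, 231 and 406 FPKM in early senescence. The groups lay far apart, and by limma the log2 change was -4.89 ± 0.48 (SE), with an adjusted p of 3.81e-06. F01.PB792 was higher again in late senescence, at 4831, 2687 and 3903 FPKM, all above early senescence and below buds. It was at 2969 ± 853 FPKM (SD, n = 3) in partial blooming and at 832, 665 and 3233 FPKM in full blooming, where replicate 3 was the high one.

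F01.PB5210 had the largest log2 fall among called genes at 1 FPKM or more in all 6 libraries. It was at 1084, 1304 and 1639 FPKM in buds and at 3.12, 1.84 and 2.43 FPKM in early senescence. Its bud mean was 544.9 times its early senescence mean. By limma the log2 change was -8.60 ± 0.82 (SE), with an adjusted p of 2.79e-06. The error draws on all 15 libraries, which were uneven at other stages. F01.PB5210 was at 37.7, 17.1 and 342 FPKM in full blooming and at 274, 63.6 and 152 FPKM in late senescence. What these 4 genes encode is not given in the files.

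**Figure D3:**
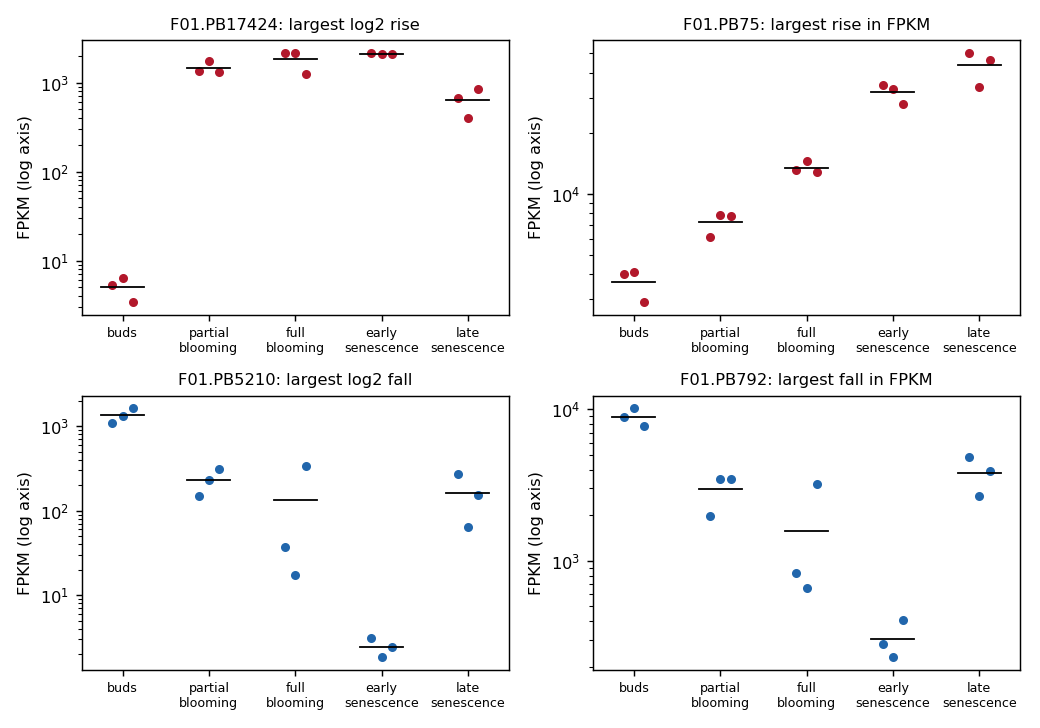
FPKM (log axis) of 4 genes in each of the 15 libraries (points) with the stage mean (line), by stage (x axis). F01.PB17424 and F01.PB75 are lowest in buds. F01.PB5210 and F01.PB792 are lowest in early senescence and higher again in late senescence.

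As a share of expression the called genes traded places. The higher genes held 13.9%, 14.5% and 15.1% of the summed FPKM in the bud libraries and 56.6%, 56.6% and 53.4% in early senescence. The lower genes held 54.1%, 53.8% and 55.0% in buds and 14.7%, 14.5% and 17.0% in early senescence. Genes tested and not called held 29.8% ± 0.775 (SD, n = 3) in buds and 28.2% ± 0.449 in early senescence. Since these genes were called on the same libraries, the shares show their weight and are not a test. The gain of the higher genes summed to 371962 FPKM and the loss of the lower genes to 369635 FPKM. Summed FPKM per library was on average 939475 in buds and 914657 in early senescence. With sums this close and a similar share not called, gain and loss have to be near each other. Few genes carried much of the gain and the loss, with 173 genes making up 50% of the gain and 278 genes 50% of the loss. F01.PB75 alone made up 7.61% of the gain.

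**Figure D4:**
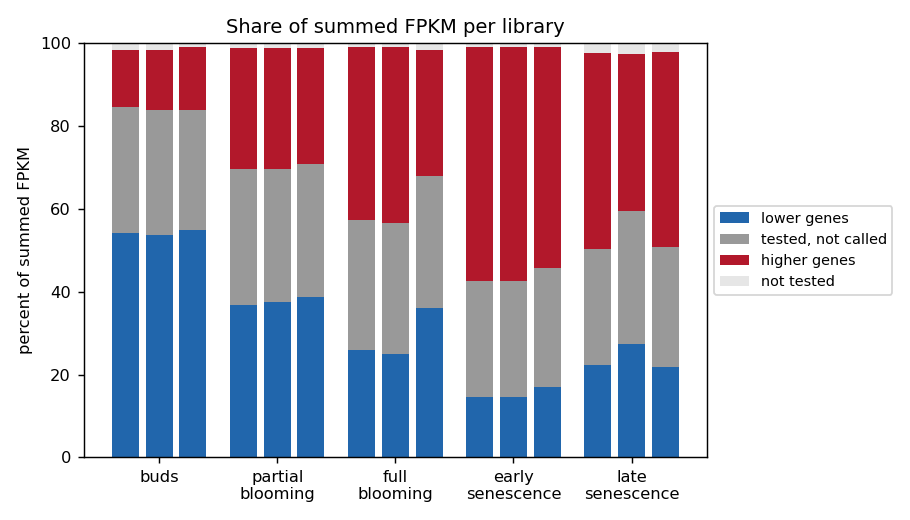
Percent of the summed FPKM (y axis) held in each of the 15 libraries (bars, replicates 1 to 3 from left to right within each stage) by genes lower in early senescence than in buds, by genes tested and not called, by genes higher in early senescence and by genes not tested. The higher genes grow from 13.9% to 15.1% in buds to between 53.4% and 56.6% in early senescence.

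The libraries of partial blooming, full blooming and late senescence did not enter the means compared, and they show when the called genes moved. The median higher gene stood 0.35, 0.38 and 0.37 log2 units above its bud mean in the partial blooming libraries and 0.62, 0.61 and 0.45 in those of full blooming. It stood 1.25, 1.26 and 1.15 above it in early senescence and 1.12, 0.88 and 1.14 in late senescence. For the median lower gene the partial blooming libraries gave -0.62, -0.50 and -0.44, and those of full blooming -0.90, -0.89 and -0.30. Its values were -1.18, -1.17 and -1.11 by early senescence and -0.74, -0.74 and -0.67 by late senescence. In both sets full blooming replicate 3 lay nearer to buds than the other 2 libraries of its stage. The median of all tested genes was 0.03 in that library and -0.25 and -0.26 in the other 2. The open-flower libraries lay between buds and early senescence in both sets, which is largely given by choosing genes for the difference between these 2 stages.

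**Figure D5:**
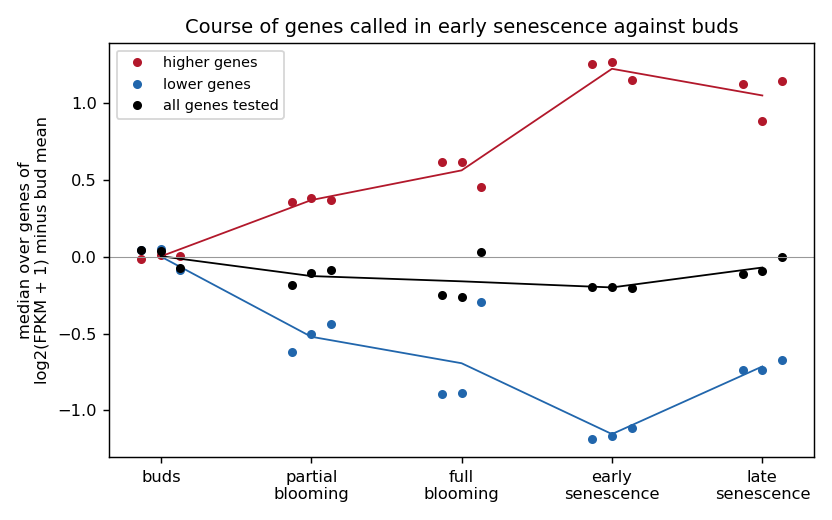
Median over genes of log2(FPKM + 1) minus the gene's bud mean (y axis) in each library (points) with the stage mean (line), for genes called higher, genes called lower and all genes tested, by stage (x axis). Both called sets are farthest from buds in early senescence, and the lower genes reach -0.74, -0.74 and -0.67 in late senescence.

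The midpoint between a gene's bud and early senescence means was used to date its change. Among the higher genes, 2668 (33.5%) had passed it by partial blooming, 1680 (21.1%) first passed it in full blooming and 3627 (45.5%) only in early senescence. Among the lower genes these were 5474 (44.7%), 3544 (29.0%) and 3217 (26.3%). With median-ratio scaling 41.4% of higher and 30.3% of lower genes passed the midpoint only in early senescence. When full blooming replicate 3 was left out of its stage mean, 3360 higher and 2322 lower genes did so. Among changes of at least 4 log2 units, 198 of 393 higher genes and 119 of 426 lower genes passed it only in early senescence. The midpoint uses the libraries that chose the genes, and no test was made of the difference between the sets.

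The higher genes that moved late had low levels in buds. Those past the midpoint only in early senescence had a bud median of 2.80 FPKM, then 2.92 at partial blooming, 3.21 at full blooming and 11.1 by early senescence. Of the summed FPKM they held 4.94% ± 0.0809 (SD, n = 3) at the bud stage, 6.23% ± 0.230 at full blooming, 17.9% ± 1.51 by early senescence and 18.8% ± 2.38 by late senescence. The higher genes that moved by partial blooming had a median of 5.12 FPKM in buds and 14.05 in partial blooming, and their share of the summed FPKM went from 5.09% ± 0.574 to 20.6% ± 0.640 by early and 10.6% ± 1.04 by late senescence.

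The lower genes that moved late were the more abundant ones in buds. Those past the midpoint only in early senescence had a bud median of 10.98 FPKM, followed by 10.1 at partial blooming, 8.71 at full blooming and 3.42 by early senescence. Of the summed FPKM they held 21.0% ± 0.552 (SD, n = 3) at the bud stage, 18.9% ± 0.560 at partial blooming, 14.5% ± 1.13 at full blooming and 5.80% ± 0.720 by early senescence. The lower genes that moved by partial blooming had a bud median of 8.20 FPKM, then 3.47 at partial blooming and 2.29 by early senescence. The order in buds held only for genes that stayed beyond the midpoint in late senescence, at 13.2 FPKM for late and 7.88 for early movers. Among those on the bud side of the midpoint by then, the bud medians were 7.64 FPKM for late and 8.65 for early movers.

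In late senescence, 5899 higher genes (74.0%) stayed beyond the midpoint and 2076 (26.0%) lay back of it, on the bud side. Of the lower genes 7376 (60.3%) stayed beyond it and 4859 (39.7%) lay back of it. The difference between the sets depended on the scaling. With median-ratio scaling 34.7% of higher genes and 34.6% of lower genes lay back of the midpoint. Large changes kept this difference under both scalings. Of the higher genes that changed by at least 4 log2 units, 22 of 393 lay back of the midpoint in late senescence, and of the lower genes of that size 179 of 426 did. With median-ratio scaling these were 33 of 477 higher and 158 of 366 lower genes. A level at or past the bud mean was reached again by 713 higher genes (8.94%) and 1445 lower genes (11.8%). Here the order turned with median-ratio scaling, to 1228 higher (11.9%) and 882 lower genes (9.59%).

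Early and late movers were also followed into late senescence. Of the 2668 that passed the midpoint by partial blooming, 1057 lay back of it in late senescence, and of the 3627 that passed it only in early senescence, 633 did. The 1057 genes went from a bud median of 7.29 FPKM to 18.1 by early and 7.32 by late senescence. The 2994 genes that moved only in early senescence and stayed went from 2.55 to 11.1 and then to 13.04 FPKM. Among the lower genes, 2240 of the 5474 early movers and 1069 of the 3217 late movers lay back of the midpoint. With median-ratio scaling 1686 of 3490 early and 1069 of 4261 late movers of the higher set lay back of the midpoint, and 1384 of 3933 and 815 of 2785 of the lower set. No test was made of these differences.

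Late senescence against partial blooming shares no library with early senescence against buds, though both take their spread from the same fit. Over all 41238 genes it called 39.2%, with 21.9% higher and 17.3% lower in late senescence. Of the 7975 genes higher in early senescence than in buds, 4085 (51.2%) were higher there too and 997 (12.5%) were lower. The 4085 genes are 45.3% of the genes higher in late senescence than in partial blooming, while the 7975 are 19.3% of all genes tested. Of the 12235 lower genes, 3067 (25.1%) were lower there too and 969 (7.92%) were higher. The 3067 genes are 43.0% of the genes lower in late senescence than in partial blooming, while the 12235 are 29.7% of all genes tested. The median change in this comparison was 0.60 log2 units for the higher genes and -0.14 for the lower genes, against 0.08 for all genes tested. With median-ratio scaling 41.8% of the higher genes were higher and 30.0% of the lower genes lower, against 19.8% and 20.0% of all genes. Of the 393 largest rises, by at least 4 log2 units, 293 were higher in late senescence than in partial blooming and 40 lower. Of the 426 largest falls 134 were lower and 24 higher.

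Full blooming against partial blooming shares no library with early senescence against buds either, and it called few genes, 1.94% of all tested, with 1.13% higher and 0.805% lower. Of the 467 genes higher in full blooming, 388 were genes higher in early senescence than in buds. The 388 are 83.1% of that short list and 4.87% of the 7975, which make up 19.3% of all genes tested. Of the 332 genes lower in full blooming, 234 were among the lower genes. The 234 are 70.5% of that list and 1.91% of the 12235, which make up 29.7% of all genes tested. Genes that went the other way numbered 43 of the higher and 23 of the lower set. These counts depended on full blooming replicate 3, whose higher genes held 30.5% of its summed FPKM against 41.8% and 42.4% in the other 2 libraries of that stage. Without it, the refitted comparison called 8300 of 41238 genes higher and 13423 lower in early senescence than in buds. In full blooming 1157 genes were then higher (2.81% of genes tested) and 1892 lower (4.59%). Of these, 956 and 1631 were also higher and lower, respectively, in the refitted early senescence lists (82.6% and 86.2% of the full blooming lists).

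A small set of genes was on in one stage and near 0 in the other. In all 3 early senescence libraries 203 genes were at 1 FPKM or more while under 0.1 in all 3 buds, and 109 of them are listed at 0 in every bud. The reverse was found for 311 genes, 164 of them listed at 0 in every early senescence library. Because a listed 0 may also be an estimate that failed, no fold is given. All of the 203 genes and 308 of the 311 were called, as the choice of the genes made likely. The 203 genes had a median of 3.36 FPKM in early senescence and reached 340 FPKM. The 311 genes had a median of 4.56 FPKM in buds and reached 706 FPKM. With median-ratio scaling 234 genes were switched on and 300 switched off. The number of genes switched on was 307 without bud replicate 2. The number switched off was 570 without bud replicate 3 and 482 without early senescence replicate 3. A rule on all libraries is met more easily when fewer are left.

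The other stages, which the choice of these genes did not use, show a range of courses. Of the 203 genes switched on, 31 were at 1 FPKM or more in all 3 partial blooming libraries, 45 in all 3 of full blooming and 136 in all 3 of late senescence. Under 0.1 in all libraries of both open-flower stages were 33 of them, and 2 were under 0.1 in every late senescence library. Of the 311 genes switched off, 63 were still at 1 FPKM or more in all 3 partial blooming libraries and 14 in all 3 of full blooming. In late senescence 106 of the 311 were again at 1 FPKM or more in all 3 libraries, and 15 were under 0.1 in all 3.

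The library nearest to the other stage was not the same for all genes. These counts describe genes called on the same libraries and are not a test. Early senescence replicate 3 was the library of its stage nearest to buds in 50.7% of higher and 45.7% of lower genes. Replicates 1 and 2 were nearest in 23.2% and 26.0% of the higher genes and in 27.6% and 26.7% of the lower genes. Among buds, replicate 3 was the lowest library in 50.8% of the lower genes, against 29.0% and 20.2% for replicates 1 and 2, while among the higher genes the 3 buds were nearest to early senescence in 30.5%, 33.3% and 36.2%. Bud replicate 3 also had the fewest genes at 1 FPKM or more of the 3 buds, 38364 against 41377 and 41115. The 3 early senescence libraries had 36843, 37094 and 36773, fewer than every bud (exact permutation p = 0.1, the smallest possible). The part of these detection counts in the calls was not tested.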

How the data were processed

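Per the file's name and values, the authors deposited 1 table of FPKM values, to 2 decimals, with 1 column per library. The submitters' processing notes name DESeq 1.18.0, HTSeq 0.6.1, TopHat2 2.0.12 and Bowtie2 2.2.3 without saying what each did. Reference sequence and filters: not given in the sources used here. No whole-read steps were seen in low values, but values to 2 decimals can blur such steps, so the search could not decide. Depth is therefore unknown.

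Genes at 1 FPKM or more in at least 3 of the 6 bud and early senescence libraries were tested by limma (version 3.58.1, under R 4.3.3). The fit took log2(FPKM + 1) of all 15 libraries and let the variance follow the mean level. Calls were two-sided and needed a p under 0.05 after Benjamini-Hochberg adjustment over all 41238 genes. Late senescence against partial blooming and full against partial blooming came from the same fit. The procedure was also run on simulated independent normal values with few shifted genes, none of them at low levels. That setting is simpler than these data.

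The members, lists and tests were chosen with earlier results of these data known. As the identifiers have no names, 4 were named by rule: among called genes with no overlap, in each direction, the largest log2 change with all 6 libraries at 1 FPKM or more and the largest difference in mean FPKM. Alternatives were another pseudocount, filter, scaling, fit, weights, replicate block or minimum change, and leaving out each library.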

Additional observations from a re-analysis of the deposited data

How the results depend on the processing

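Of 318 values recomputed, 298 kept their call and direction or stayed within 1.5 times, 20 moved further and 0 changed sign. Leaving out a library with the same genes tested, leaving full blooming replicate 3 out of its mean, and leaving it out of full against partial blooming, were chosen after seeing the data. The causes of shifts were not tested. By definition a stricter rule passes fewer genes, and fewer libraries make a rule easier or harder to meet. With a filter at 5 FPKM, 22182 genes were tested, 7497 were lower and 15264 did not overlap. With a minimum change of 1 log2 unit, 4931 genes were higher and 7206 lower, and 2337 higher and 1367 lower genes moved the same way in late senescence against partial blooming. Listed at 0 in place of under 0.1 gave 109 genes switched on and 164 off, and 5 FPKM in place of 1 gave 59 and 94. With median-ratio scaling, 2541 higher genes first passed the midpoint in full blooming, and 3573 higher and 3180 lower genes lay back of it in late senescence.

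Leaving out each library in turn gave 5588 to 8300 higher and 7734 to 13423 lower genes, 2733 to 4361 and 2388 to 3694 that moved the same way in late senescence against partial blooming, 24329 to 25826 without overlap, 224 to 307 switched on, and 342 to 570 switched off. Without full blooming replicate 3 and with both comparisons refitted, 956 higher and 1631 lower genes moved the same way in full against partial blooming. With it these were 388 and 234. The share in the top 100 genes differed by 2.45 to 3.09 percentage points. Each of the 4 named genes kept its call under all 32 alternatives, with the largest limma adjusted p at 0.000647. No pairing of libraries by replicate number was seen, though these few values cannot exclude one. Deviations of bud and early senescence libraries of the same number correlated at -0.09, 0.05 and 0.08 across genes. Those of different numbers correlated at -0.18 to 0.16. With a replicate block 7749 genes were higher and 11814 lower, and on the 6 libraries alone with the block 7203 and 11527. Late senescence against partial blooming could not be fitted on the 6 libraries.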
